A study of Homo sapiens with 2 samples.

Results

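The genes described here are 10 developmental regulators that were selected on measured values, because several of them had stood out between the same 2 libraries in an earlier look at these data. They are the transcription factor genes FEZF1, LHX5, IRX1, IRX2, POU3F1, ZIC2, PAX6 and SIX3, the cofactor gene LMO1 and the long non-coding RNA LHX5-AS1, and they make up 10 of the 33538 genes counted. All 10 had a row in both count matrices. They were followed in single-cell RNA sequencing of 2 libraries made from H1, a much-used human embryonic stem cell (hESC) line. Before sequencing, both had received bone morphogenetic protein 4 (BMP4) at 50 ng/ml in mTeSR1, a medium that otherwise keeps hESCs pluripotent. The library labelled WT held unmodified H1 cells. The library labelled GATA3 KO held clone KO-GATA3-06, in which Cas9 had been directed at GATA3, a zinc-finger transcription factor gene. That clone came from an H1 line with a doxycycline-inducible Cas9 cassette at AAVS1, so that clone, cassette and genotype cannot be told apart. The title and duration of the library labelled WT give 48 h of BMP4, the time of the other library, although its treatment text gives 1 h, and 48 h was used. These names are used below as labels.

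Neural ectoderm arises from the anterior epiblast where BMP signalling is kept low, whereas BMP drives the same cells toward surface ectoderm, mesoderm or extraembryonic fates. As the neural plate forms, pluripotency factors give way to regional transcription factors. FEZF1, SIX3 and PAX6 mark the forebrain and eye fields, LHX5 acts in the forebrain and in later interneurons, the Iroquois genes IRX1 and IRX2 take part in neural plate patterning, and ZIC2 and POU3F1 are already active in primed pluripotent cells.

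There was 1 library per group and therefore no replicate error, so no test was made, and every interval covers counting error only. Cells with at most 25% mitochondrial counts were kept, which left 3531 of 3802 WT cells and 5715 of 6221 GATA3 KO cells. These held 197711037 and 278939889 unique molecular identifiers (UMIs, each standing for 1 captured transcript end), with medians of 52220 and 48053 per cell. The libraries shared 8 cell barcodes. GATA3 itself stood at 19.1 and 11.1 counts per 1000000 UMIs (CPM) in the WT and GATA3 KO libraries. A 3′ count cannot show a coding lesion, so the direction of each comparison rests on the labels. The label of early neural ectoderm was checked against pan-neural genes. SOX1, a marker of committed neural ectoderm, had 6 UMIs in the WT library and 10 in the GATA3 KO library, and the pluripotency factor POU5F1 was detected in 99.97% and 99.8% of cells thinned to 10000 UMIs. The data thus give no SOX1-expressing population, and the genes are called here by their names. In the summed counts, fewer cells with a gene and fewer transcripts per cell cannot be told apart, and the shares of cells are given for that reason.

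Positions follow the GENCODE annotation of GRCh38, matched by gene identifier for all 10 genes. LHX5 lies on the minus strand at chr12:113462033-113472280, and LHX5-AS1, a long non-coding RNA, on the plus strand at chr12:113471981-113480636, so that their 5′ ends overlap by 300 bases. FEZF1 (chr7:122301303-122310691, minus strand) shares 6462 bases with FEZF1-AS1 on the opposite strand, and SIX3 (chr2:44941702-44946071, plus strand) shares 215 bases with SIX3-AS1. IRX1 (chr5:3595832-3601403, plus strand) and IRX2 (chr5:2745845-2751677, minus strand) belong to the same Iroquois cluster. The others are POU3F1 (chr1:38043829-38046793, minus strand), PAX6 (chr11:31784779-31817961, minus strand), LMO1 (chr11:8224309-8268716, minus strand) and ZIC2 (chr13:99981784-99986765, plus strand). At its 3′ end PAX6 shares 5546 bases with ELP4 on the opposite strand, a gene that was also counted. PAX6 and IRX1 further overlap opposite-strand genes that were not among those counted. The sources used here do not say whether reads were counted by strand, and the assignment of reads in overlapping stretches was not tested.

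The promoters of IRX1 and LMO1 are shown because these genes met LHX5 in single cells most often relative to their own shares, after LHX5-AS1, and that of IRX2 because its share of cells differed most. Each is the 250 bases before the RefSeq start (GRCh38.p14), written 5′ to 3′ on the strand of the gene. The entries matched 7 of the 10 genes, and LHX5, LHX5-AS1 and SIX3 had none. Both strands were searched for 4 short words, and matches are in capitals, none of which overlap. The homeodomain core was taken as TAATTA, which reads alike on both strands. The SOX-type word was ATTGTT. The GATA-type word was TTATCA. The fourth was CCAAT, the CCAAT box. The IRX1 window is chr5:3595582-3595831, the LMO1 window chr11:8268788-8269037 and the IRX2 window chr5:2751678-2751927.
IRX1 promoter: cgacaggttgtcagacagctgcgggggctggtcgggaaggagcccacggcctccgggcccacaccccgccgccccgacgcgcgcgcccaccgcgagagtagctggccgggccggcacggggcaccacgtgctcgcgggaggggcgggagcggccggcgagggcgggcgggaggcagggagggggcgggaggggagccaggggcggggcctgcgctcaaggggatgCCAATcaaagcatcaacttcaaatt
LMO1 promoter: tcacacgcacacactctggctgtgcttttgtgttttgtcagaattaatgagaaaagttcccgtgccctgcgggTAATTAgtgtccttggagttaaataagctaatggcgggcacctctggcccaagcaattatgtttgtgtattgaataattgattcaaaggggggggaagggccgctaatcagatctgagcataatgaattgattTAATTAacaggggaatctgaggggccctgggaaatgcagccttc
IRX2 promoter: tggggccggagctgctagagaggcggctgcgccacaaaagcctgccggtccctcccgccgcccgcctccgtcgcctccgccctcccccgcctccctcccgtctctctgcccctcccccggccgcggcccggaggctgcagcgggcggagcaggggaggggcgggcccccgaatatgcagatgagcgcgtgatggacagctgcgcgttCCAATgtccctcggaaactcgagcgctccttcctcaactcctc
The LMO1 window held 2 copies of TAATTA, whose first bases lie 177 and 44 bases before the start. The homeodomain core was present in 4.35% of the 35116 promoter windows of this length. IRX1 and IRX2 each held a single CCAAT match, 25 and 43 bases before the start, a word found in 32% of windows. SOX-type and GATA-type matches were absent from these 3 windows and occurred in 8.98% and 6.66% of all windows. A match describes the letters alone.

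Levels of 9 of the 10 genes were higher in the GATA3 KO library, and 7 of them were at least 2-fold higher. These were LHX5-AS1, LHX5, FEZF1, IRX1, PAX6, IRX2 and SIX3. Since the genes were chosen by such differences, this count is a description. Among all 17459 genes with at least 50 UMIs over both libraries, a minimum that all 10 met, 4.5% were at least 2-fold higher and 6.11% at least 2-fold lower. The median log2 ratio of the GATA3 KO library over the WT library was 1.31 for the 10 genes and 0.02 for all genes. SIX3 lay just inside the 2-fold line at 2.01-fold and LMO1 just outside it at 1.99-fold. With cells of more than 7500 detected genes removed, as in the methods of the study, 5 genes were at least 2-fold higher, and PAX6 and SIX3 were no longer among them. The 10 nearest genes of each member with at least 50 UMIs had median log2 ratios between -0.22 (ZIC2) and 0.51 (LHX5 and LHX5-AS1).

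**Figure D1:**
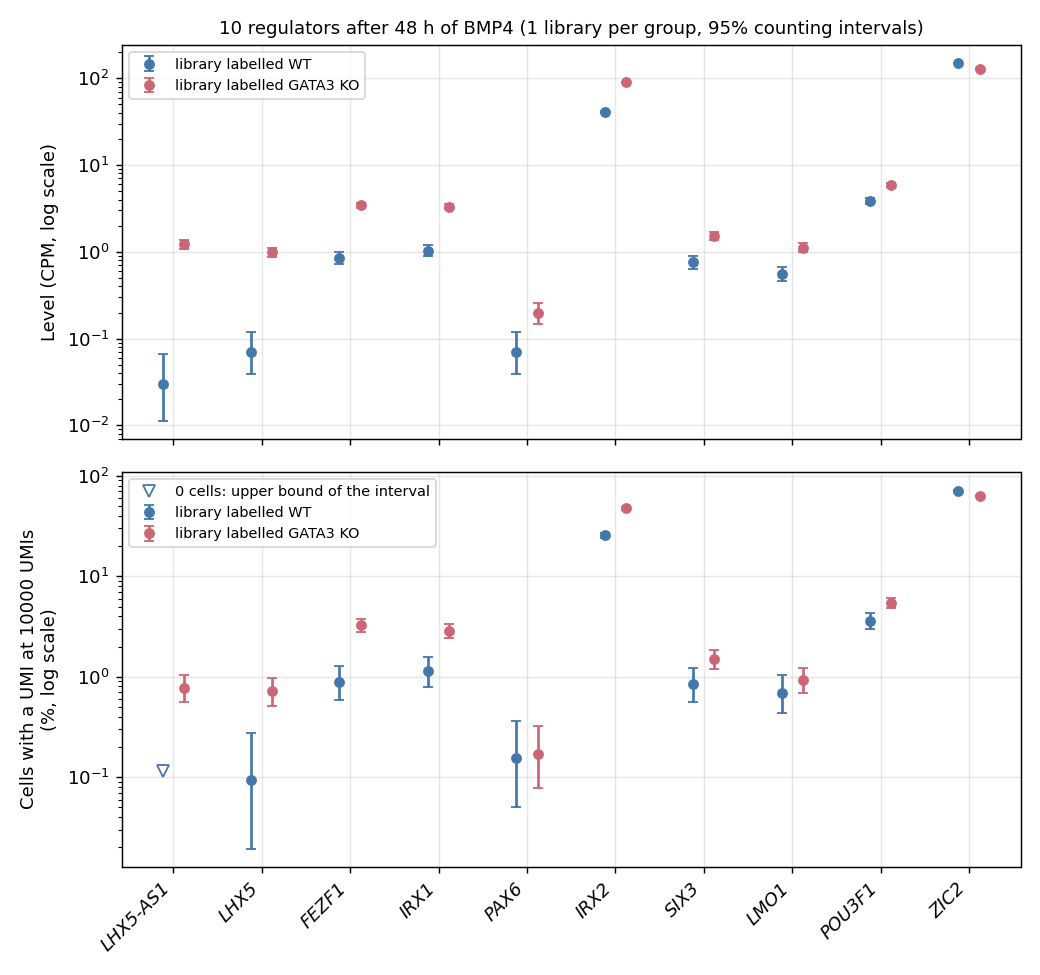
Upper panel: level of each gene in the summed cells (CPM, log scale) with exact Poisson 95% intervals. Lower panel: share of cells with at least 1 UMI after thinning to 10000 UMIs (log scale) with Clopper-Pearson 95% intervals, for 3185 WT cells (blue) and 5303 GATA3 KO cells (red). Genes are ordered by log2 ratio, from LHX5-AS1 (5.32) to ZIC2 (-0.22), and the open triangle marks the upper bound where 0 cells had a UMI.

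LHX5 encodes a LIM-homeodomain transcription factor, and its transcripts were close to absent from the WT library. It had 14 UMIs there, or 0.0708 CPM (95% interval 0.0387 to 0.119), against 277 UMIs and 0.993 CPM (0.88 to 1.12) in the GATA3 KO library. The log2 ratio was 3.81 (3.04 to 4.70), the second highest of the 10 genes. Most LHX5 UMIs of the GATA3 KO library lay in a few cells. All 14 LHX5 UMIs of the WT library lay in separate cells, and no cell had 2 or more, which allows a share of up to 0.104%. In the GATA3 KO library, 102 cells had LHX5, of which 51 had at least 2 UMIs, 34 at least 3 and 15 at least 5, up to 15 in 1 cell. Those 34 cells (0.595% of 5715, Clopper-Pearson interval 0.412 to 0.83%) held 69.3% of all LHX5 UMIs. Cells with exactly 1 LHX5 UMI were 51 of 5715 in the GATA3 KO library and 14 of 3531 in the WT library.

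To compare shares at equal depth, each cell was thinned at random to 10000 UMIs, and 346 and 412 shallower cells were left out. LHX5 was then seen in 3 of 3185 WT cells (0.0942%) and in 38 of 5303 GATA3 KO cells (0.717%), a difference of 0.622 percentage points (0.346 to 0.898). Before any thinning, LHX5 was present in 0.396 and 1.78% of cells. At 20000 UMIs per cell the difference was 0.996 points and with at least 2 UMIs required it was 0.302 points. It kept its sign under each of these settings and grew with the depth of the cells.

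LHX5-AS1 followed LHX5. It had 6 UMIs in 6 WT cells and 339 UMIs in 91 GATA3 KO cells, or 0.0303 CPM (0.0111 to 0.0661) and 1.22 CPM (1.09 to 1.35). Its log2 ratio of 5.32 (4.19 to 6.78) was the highest of the set. At equal depth it was found in 0 WT cells, which allows a share of up to 0.116%, and in 41 cells (0.773%) labelled GATA3 KO. A single cell held as many as 21 of its UMIs. In the WT library no cell had both RNAs, but with 14 LHX5 cells and 6 LHX5-AS1 cells there this count does not compare the libraries. Of the 102 LHX5 GATA3 KO cells, 57 also had LHX5-AS1 (55.9%). That share was 30 of 34 cells with at least 3 LHX5 UMIs (88.2%) and 15 of 51 cells with 1 LHX5 UMI (29.4%).

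**Figure D2:**
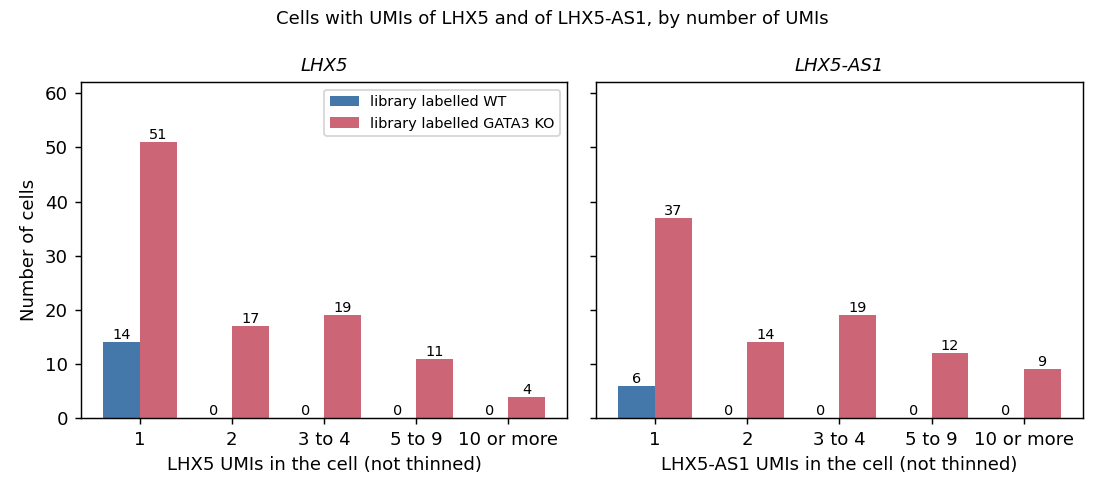
Number of cells (y axis) by the number of LHX5 (left) or LHX5-AS1 (right) UMIs they held without thinning, for the WT library (blue) and the GATA3 KO library (red), with cells at 0 left out. The WT cells all sit at 1 UMI, 14 for LHX5 and 6 for LHX5-AS1, and the GATA3 KO cells extend to the class of 10 or more UMIs, with 4 and 9 cells.

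FEZF1, a zinc-finger repressor of the anterior forebrain, stood at 0.85 CPM (0.726 to 0.988) in WT cells and at 3.43 CPM (3.22 to 3.66) in GATA3 KO cells. On the log2 scale the ratio was 2.01 (1.78 to 2.26). Its 957 UMIs in the GATA3 KO library lay in 645 cells, of which 155 had at least 2 and 61 at least 3, and in the WT library 168 UMIs lay in 148 cells. At equal depth FEZF1 was found in 0.879% of WT cells and 3.26% of GATA3 KO cells. Among GATA3 KO cells without SOX2 it was found in 0.576% (0.157 to 1.47%), and the part of free RNA in cells with a single UMI was not tested. FEZF1-AS1, its antisense partner, was higher too, at 0.324 and 1.94 CPM (log2 ratio 2.59, interval 2.21 to 2.98). At equal depth, 14 GATA3 KO cells had both FEZF1 and FEZF1-AS1, where the product of their shares gives 3.33.

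The Iroquois genes differed in breadth. IRX1 had 1.03 CPM (0.895 to 1.18) in the WT library and 3.29 CPM (3.09 to 3.51) in the GATA3 KO library, a log2 ratio of 1.67 (1.45 to 1.90), and was detected in 1.13 and 2.85% of cells at equal depth. In the GATA3 KO library 77 of its 498 positive cells had at least 3 UMIs and held 46.9% of its 919 UMIs. IRX2 had 40.6 CPM (39.7 to 41.5) in WT cells against 90 CPM (88.9 to 91.2), a log2 ratio of 1.15 (1.11 to 1.19). It was detected in 25.5% of WT cells and 47.3% of GATA3 KO cells, the largest difference in points of the 10 genes (21.8, interval 19.8 to 23.8). C5orf38, transcribed away from IRX2 on the opposite strand, went from 5.14 to 10.0 CPM (log2 ratio 0.97), while IRX4, the next Iroquois gene of the cluster, had 0.491 and 0.556 CPM with an interval that includes no difference (log2 ratio 0.18, -0.20 to 0.56).

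ZIC2, a zinc-finger gene of primed pluripotent cells and the dorsal neural tube, was the exception in direction. It had 149.8 CPM (148.1 to 151.5) in the WT library and 128.8 CPM (127.5 to 130.1) in the GATA3 KO library, a log2 ratio of -0.22 (-0.24 to -0.20). Its share of cells at equal depth was 70.8% and 62.6%. ZIC5, which lies beside ZIC2, had 25.9 and 22.7 CPM (log2 ratio -0.19). POU3F1, the POU-domain factor OCT6, had 3.84 CPM (3.57 to 4.12) in WT cells against 5.85 CPM (5.57 to 6.14), a log2 ratio of 0.61 (0.48 to 0.73), and was present in 3.58 and 5.43% of cells.

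For 3 genes the difference rested on little or depended on the measure. PAX6, a paired-box gene of eye and forebrain, had 14 UMIs in the WT library and 55 in the GATA3 KO library (log2 ratio 1.48, 0.61 to 2.44). At equal depth it was seen in 5 and 9 cells, shares of 0.157 and 0.17% whose difference included 0 (-0.216 to 0.198 points). Its ratio reversed to a log2 of -1.66 when the CPM of single cells were averaged, and 1 of its 14 UMIs in the WT library lay in a cell of only 575 UMIs. LMO1, a LIM-only cofactor that binds no DNA itself, had 0.561 and 1.12 CPM (log2 ratio 0.99, 0.68 to 1.32). Its share of cells hardly differed, at 0.691 and 0.924% (difference -0.194 to 0.625 points), but 22 GATA3 KO cells with at least 3 UMIs held 62.2% of its UMIs, against 10.8% in 4 WT cells. SIX3, a homeobox gene of the eye field and anterior forebrain, had 0.759 and 1.52 CPM (log2 ratio 1.01, 0.73 to 1.28), and shares of 0.848 and 1.49% (difference 0.15 to 1.11 points). Its antisense partner SIX3-AS1 had 16 and 26 UMIs.

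Over the 10 genes, the interval of the difference lay above 0 for 7 genes (FEZF1, LHX5, LHX5-AS1, IRX1, IRX2, POU3F1 and SIX3), below 0 for ZIC2, and included 0 for PAX6 and LMO1. At 5000 UMIs per cell SIX3 left the 7, and with at least 2 UMIs required LMO1 took its place.

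Which of these genes met in the same cell was read at equal depth, as the number of cells with both of a pair against the number that the product of their shares gives. These are descriptions over the cells of 1 library, which share its depth. In the GATA3 KO library, 14 of the 45 pairs had at least 5 cells and at least 3 times the product. All 14 were among the 15 pairs of LHX5, LHX5-AS1, IRX1, LMO1, FEZF1 and POU3F1, a set of 6 named after the values were seen. LHX5 and LHX5-AS1 were together in 14 cells against a product of 0.295, LHX5 and LMO1 in 13 against 0.351, LHX5 and IRX1 in 19 against 1.08, and IRX1 and LMO1 in 18 against 1.4. Smaller ratios were seen for FEZF1 with LHX5, in 11 cells against 1.24, and FEZF1 with IRX1, in 21 against 4.93. The broadly detected genes were close to their product, with IRX2 and ZIC2 in 1757 cells against 1571. SIX3 and IRX2 were together in 25 cells, fewer than the product of 37.4.

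In the WT library the 11 pairs with at least 5 cells all contained IRX2 or ZIC2, which are detected so broadly that no pair with either reached 3 times the product in the GATA3 KO library, so these pairs do not compare the libraries. The 15 pairs of the 6 genes held 4 co-detections in all against a summed product of 4.03, compared with 222 against 38.3 in the GATA3 KO library. Most single pairs could not be judged in WT cells, since LHX5 with IRX1, for example, had a product of 0.0339 cells. At least 2 of LHX5, LHX5-AS1, IRX1 and LMO1 were detected in 0 of 3185 WT cells, which allows up to 0.116%. The largest WT product among pairs of these 4 genes was 0.249 cells, for IRX1 with LMO1. The shares alone thus also give a count near 0 in that library. In the GATA3 KO library 48 cells (0.905%) had at least 2 of the 4 genes, of which 20 had at least 3 of them. With only the cells of at most 7500 detected genes, 12 pairs in the GATA3 KO library passed, and among cells with at least 3 SOX2 UMIs 13 did.

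**Figure D3:**
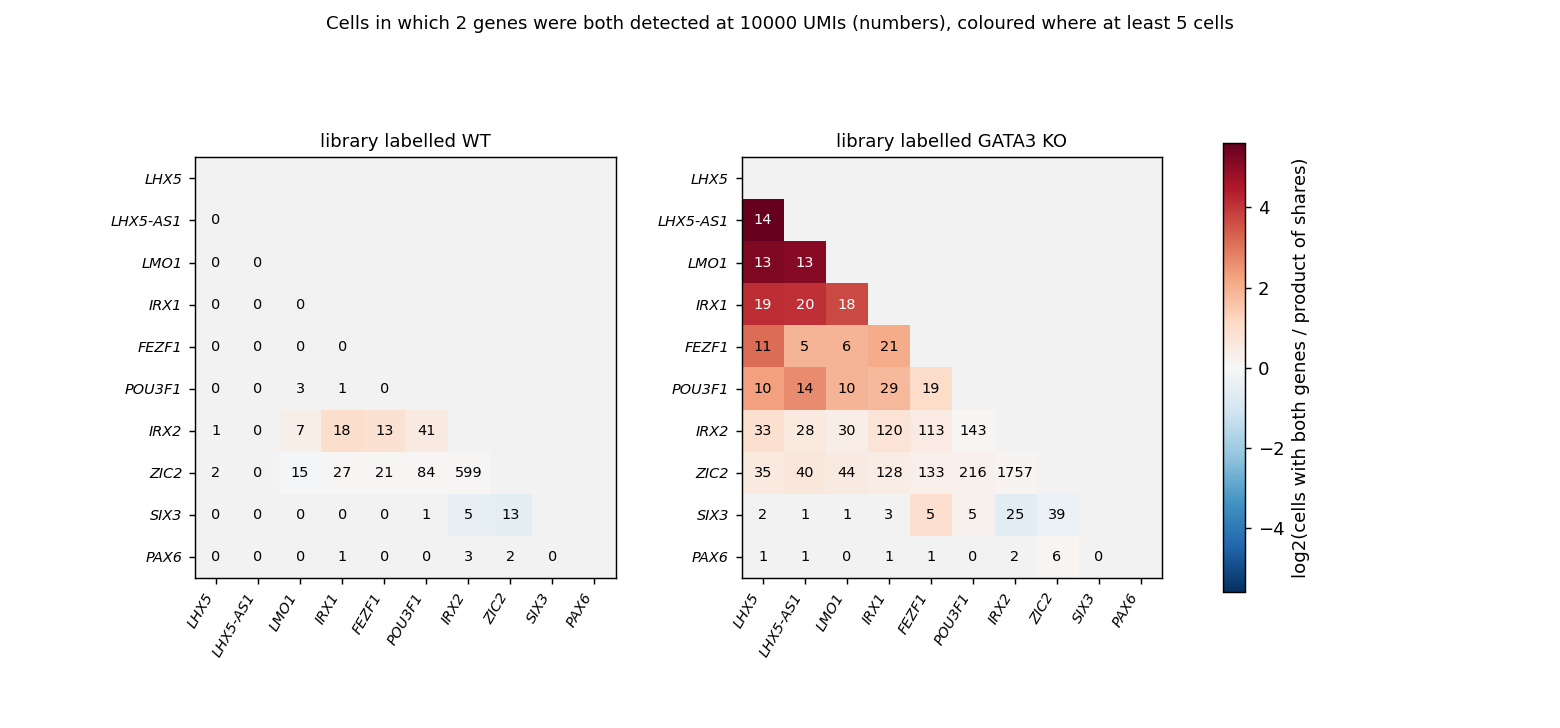
Numbers of cells in which both genes of a pair had at least 1 UMI at 10000 UMIs per cell, for the WT library (left, 3185 cells) and the GATA3 KO library (right, 5303 cells). Colour is log2 of that number over the product of the shares, shown where at least 5 cells had both, and the red block of LHX5, LHX5-AS1, LMO1 and IRX1 in the right panel reaches 14 cells against 0.295 for LHX5 with LHX5-AS1.

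Cells were next ordered by their own UMIs of SOX2, a factor of both pluripotent and neural cells. In the GATA3 KO library the share with FEZF1 went from 0.576% of 694 cells without SOX2 to 5.69% of 1406 cells with at least 6 SOX2 UMIs. The share with IRX1 went from 0.432 to 4.27% and that with IRX2 from 28.5 to 63.4% over the same ranges. Median depth before thinning was alike, at 50352 and 49228 UMIs. The library labelled WT showed the same order, with IRX2 in 12.8% of 1386 cells without SOX2 and 56.2% of 160 cells in the top range. Within each SOX2 range IRX2 differed less between the libraries than over all cells. The widest gap was in cells without SOX2, at 12.8% (WT) and 28.5% (GATA3 KO). With 1 to 2 SOX2 UMIs IRX2 was present in 25.9% of WT cells and 34.3% of GATA3 KO cells. In the range of 3 to 5 SOX2 UMIs its shares were 43.9 and 50.2%. FEZF1 was present in 1.21% (0.522 to 2.36%) and 3.26% (2.53 to 4.13%) of cells in that range, a gap close to that over all cells. In every other range its share was higher in GATA3 KO cells too, but the intervals of the 2 libraries overlapped. In the top range they were 1.39 to 7.98% in WT cells and 4.54 to 7.03% in GATA3 KO cells. SOX2 itself was 2.54-fold higher in the GATA3 KO library, at 153 and 389 CPM, and its part in the differences of the 10 genes was not tested.

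**Figure D4:**
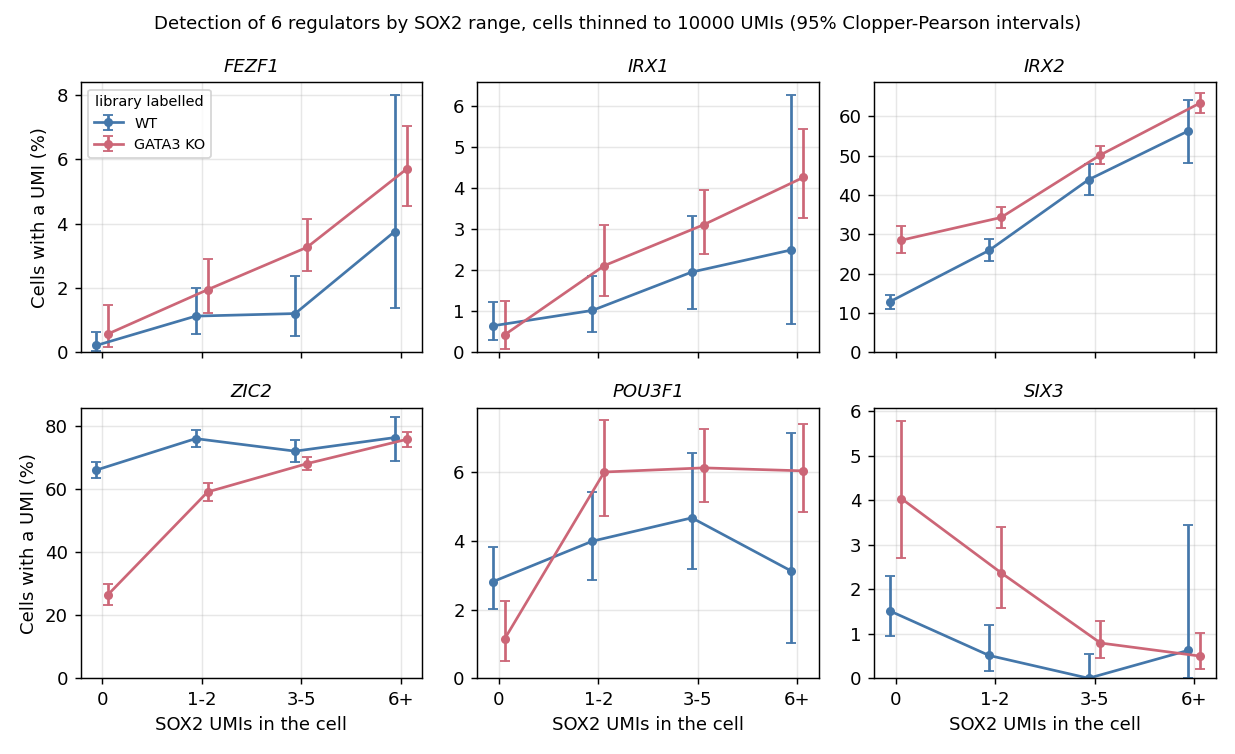
Share of cells with at least 1 UMI of 6 of the genes (y axis, %) by the number of SOX2 UMIs in the cell (x axis), after thinning to 10000 UMIs, with Clopper-Pearson 95% intervals, for the WT library (blue) and the GATA3 KO library (red). FEZF1, IRX1 and IRX2 are at their highest in the top SOX2 range, where IRX2 reaches 63.4% in the GATA3 KO library, and SIX3 is highest in cells without SOX2 (4.03%).

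A second division set apart cells with at least 2 UMIs of primitive streak genes (TBXT, MIXL1, EOMES, MESP1, GSC) or of extraembryonic genes (HAND1, ISL1, GATA3, GATA2, TFAP2A, TFAP2B). Streak cells made up 1084 WT cells but only 110 GATA3 KO cells, and extraembryonic cells 314 and 693. All 5 streak genes were lower in the GATA3 KO library, with a median log2 ratio of -4.45. FEZF1, LHX5, LHX5-AS1 and IRX1 were seen in 0 of the 110 streak GATA3 KO cells, which allows shares of up to 3.3%. In the cells in neither range LHX5 and LHX5-AS1 were seen in 0.619% and 0.531%, so that a difference was not detectable at this depth. FEZF1 was seen in 3.54% of those cells (3.02 to 4.12%) and IRX1 in 2.94% (2.47 to 3.48%), and both intervals include that bound. In the 1084 WT streak cells LHX5 and LHX5-AS1 were also at 0, which allows up to 0.34%, and FEZF1 was seen in 0.369%. Median depths of the streak cells before thinning were 58812 (WT) and 57534 UMIs (GATA3 KO). The lower overall share of ZIC2 was not seen in every range. Among cells in neither range it was found in 70.4% of 1868 WT cells and 68.3% of 4520 GATA3 KO cells, with intervals that overlap (68.3 to 72.5% and 66.9 to 69.6%). In streak cells it was found in 80.4% of WT cells (77.9 to 82.7%) and 73.6% of GATA3 KO cells (64.4 to 81.6%), and in extraembryonic cells in 40.4% (35.0 to 46.1%) and 24.4% (21.2 to 27.8%). IRX2 stayed apart among cells in neither range, at 33.3 and 50.0%, and FEZF1 did as well, at 1.28 and 3.54%.

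FEZF1, IRX1, IRX2, POU3F1 and ZIC2 were detected in a smaller share of streak or extraembryonic GATA3 KO cells than of the cells in neither range. The other 5 members were detected in a larger share, most clearly SIX3. For IRX1, LHX5, LMO1 and PAX6 the intervals of the 2 shares overlapped, so their direction is open. LHX5-AS1 was found in 2.17% of streak or extraembryonic GATA3 KO cells (1.27 to 3.45%) and 0.531% of the cells in neither (0.34 to 0.789%). Of its 41 positive cells 17 lay in the extraembryonic range and none in the streak range. In the GATA3 KO library 46 of the 79 SIX3-positive cells (58.2%) lay in the streak or extraembryonic range. SIX3 was found there in 5.87% of cells (4.33 to 7.76%), against 0.73% (0.503 to 1.02%) of the cells in neither. In the WT library 20 of its 27 positive cells did. TFAP2A, a factor of surface ectoderm, neural crest and extraembryonic cells, was detected in 55 of the 79 SIX3 cells (69.6%) and in 17.2% of the cells without SIX3. SIX3 cells were also poorer in OTX2, an anterior factor of epiblast and forebrain (6.33 against 23.4%), and in SOX2 (64.6 against 87.3%). The other genes of the extraembryonic list were seen in few LHX5 or LHX5-AS1 cells. TFAP2A was present in 15 of 38 LHX5 cells (39.5%) and 24 of 41 LHX5-AS1 cells (58.5%), whereas ISL1 was seen in none of either, GATA3 in 1 and 0, and HAND1 in 1 and 2. TFAP2B was seen in 1 LHX5 cell (2.63%, against 1.08% of cells without LHX5) and 3 LHX5-AS1 cells (7.32 against 1.05%).

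The 34 GATA3 KO cells with at least 3 LHX5 UMIs were compared with the 5613 cells of that library that had none. Counts were summed within each set and 1 CPM was added before taking log2, and since the cells were chosen by LHX5, and all came from 1 library, the values are descriptions. The 34 cells were of ordinary depth (median 50128 against 48003 UMIs). Of these cells 14 had more than 7500 detected genes (41.2 against 21.8%), and 2 were among the cells of highest doublet score (5.88 against 5.36%). Of 5697 genes with at least 20 CPM in the higher set, 2.95% were at least 2-fold higher in the LHX5 cells. LHX5-AS1 stood at 96.1 against 0.238 CPM and LMO1 at 69.3 against 0.396 CPM. IRX1 stood at 77.4 against 2.14 CPM, FEZF1 at 37.9 against 3.06 CPM and POU3F1 at 49.0 against 5.30 CPM. ZIC2 and IRX2, the genes that were broadly detected, were higher too, at 370 against 125 CPM and 188 against 88.2 CPM. PAX6 (9.61 against 0.121 CPM) and SIX3 (5.56 against 1.5 CPM) lay below the minimum of 20 CPM. Against LHX5-negative cells with at least 3 SOX2 UMIs, IRX2 was under 2-fold (log2 ratio 0.78).

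In single cells of the 34, ZIC2 was present in all with 7 to 66 UMIs, IRX2 in 33, LHX5-AS1 in 30, IRX1 in 29, POU3F1 in 27 and LMO1 in 22. FEZF1 was present in 15, PAX6 in 9 and SIX3 in 6. The cell with the most LHX5 (15 UMIs of 69172) also held 14 UMIs of FEZF1, 13 of LHX5-AS1, 6 of LMO1, 5 of IRX1 and 3 of PAX6.

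The non-member genes with the highest ratios in the LHX5 cells were DLK1, ZEB2, PAX3, PKDCC, LGI1, GREB1L, ZFHX4, ZNF503, SP5 and C11orf96. DLK1, a Delta-like membrane protein, stood at 118 against 1.22 CPM, ZEB2, a zinc-finger SMAD partner of early neural and neural crest cells, at 70.3 against 0.539 CPM, and PAX3, a paired-box factor of dorsal neural tube and neural plate border, at 45 against 0.0623 CPM. The lowest were ANXA1, AL117378.1, ACTA1, GAL and NMU, with the neuropeptide GAL at 66.2 against 385 CPM. At a cut of 2 or 5 LHX5 UMIs 8 and 9 of the 10 highest genes were again among the 10 highest. Of the 5 lowest genes only 3 and 2 were again among the 5 lowest at these cuts.

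Of the fixed lists, forebrain and midbrain genes were higher in the LHX5 cells while pluripotency genes were lower. OTX2 stood at 110 against 28.0 CPM, EMX2, a dorsal forebrain homeobox gene, at 12.1 against 0.055 CPM and SOX21, a SOX factor of neural progenitors, at 37.9 against 1.69 CPM. PAX2 and EN1, which mark the border of midbrain and hindbrain, stood at 18.2 against 0.0476 CPM and 15.2 against 0.359 CPM. SOX2 stood at 488 against 386 CPM. NANOG was at 14.2 against 58.1 CPM, POU5F1 at 584 against 1475 CPM and TDGF1, the Nodal coreceptor, at 64.2 against 325 CPM. SOX3, a neural and epiblast SOX gene, was at 5.06 against 20.6 CPM, and SOX1, SIX6, ZIC1 and FEZF2 had 0 UMIs in the 34 cells. Border genes were mixed, with TFAP2A at 106 against 37.2 CPM and MSX1 at 47.5 against 14.6 CPM, but DLX5 at 7.08 against 10.1 CPM and GATA2 at 3.03 against 7.77 CPM. The summed level of the streak list was 6.57 against 15.1 CPM, and no cell of the 34 had more than 2 of its UMIs.

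**Figure D5:**
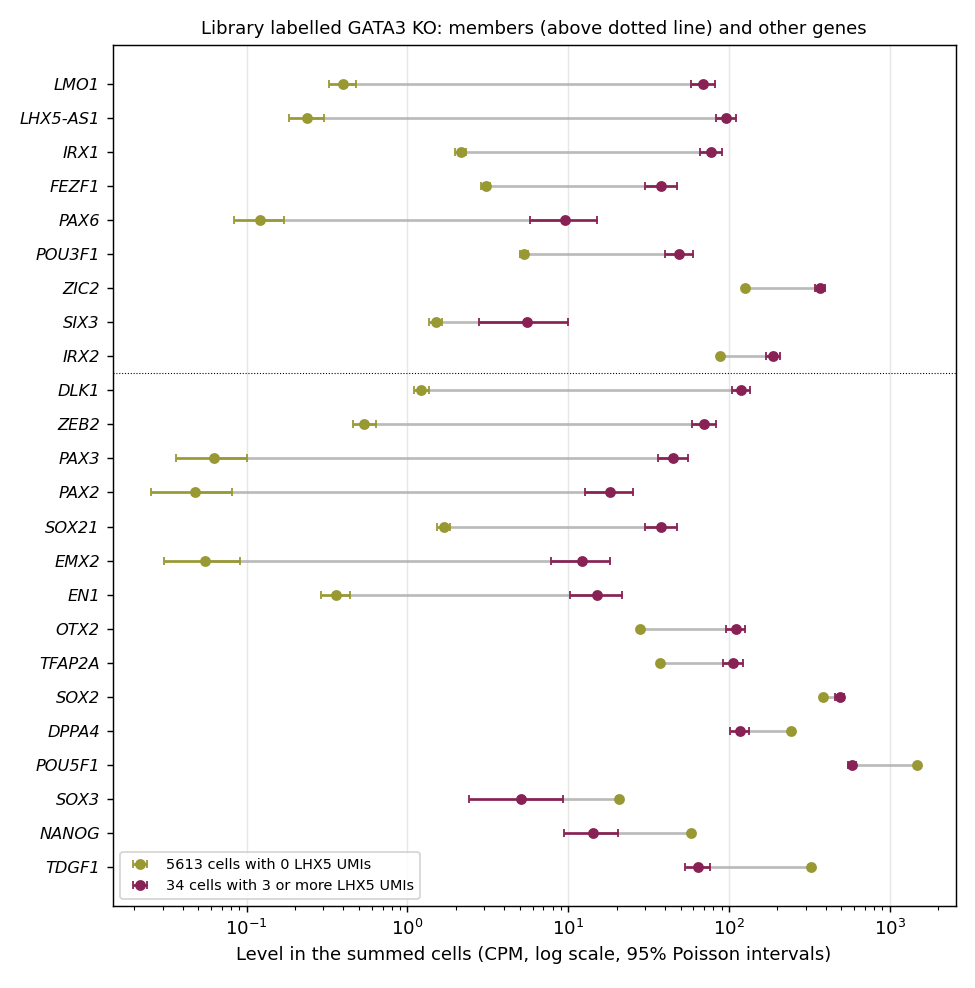
Levels (x axis, CPM, log scale, Poisson 95% intervals) in the summed 34 cells with at least 3 LHX5 UMIs (purple) and in the 5613 cells with none (olive), all from the GATA3 KO library. The 9 other members lie above the dotted line and sit higher in the LHX5 cells, as for LMO1 at 69.3 against 0.396 CPM, and POU5F1, NANOG and TDGF1 at the bottom sit lower.

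Other neural genes were described over the whole libraries with 3 fixed lists of 12 genes each. Of these genes 24 had at least 50 UMIs over both libraries. Of the 24, 11 were at least 2-fold higher in the GATA3 KO library and 2 at least 2-fold lower, beside 4.5 and 6.11% of all genes. A gene low in 1 library can pass that minimum through the other, and the lists were chosen with earlier results known. The counts are therefore descriptions. Of the forebrain and eye-field genes 4 of 7 were higher (median log2 ratio 1.12). OTX2 had 11.5 and 29.3 CPM, TCF7L1, a repressor of Wnt targets, 48.0 and 128.4 CPM, DLX2 1.81 and 4.81 CPM and EMX2 0.0658 and 0.143 CPM. Of the midbrain and hindbrain genes 3 of 8 were higher, namely EN1 (0.126 and 0.477 CPM), EN2 (0.157 and 0.678 CPM) and PAX2 (3 and 67 UMIs), and FGF8, which the streak also expresses, was lower (18.6 and 2.54 CPM). Of the pan-neural genes 4 of 9 were higher, with NES, an intermediate filament of progenitors, at 35.3 and 102.1 CPM and SOX3 at 6.27 and 20.4 CPM, POU3F2 at 0.334 and 0.742 CPM and HES5 at 0.182 and 0.459 CPM. CDH2, an adhesion molecule of both neural and streak cells, was lower, at 62.9 and 25.9 CPM. Of the 12 surface ectoderm and border genes 5 were at least 2-fold higher, namely TFAP2B, DLX3, DLX6, GATA2 and PAX3, and none was 2-fold lower. A minimum of 1 CPM in the higher library left 13 of the neural genes, of which 5 were at least 2-fold higher. With no minimum beyond 1 UMI in each library, 12 of 35 neural genes were at least 2-fold higher and 7 at least 2-fold lower. Of all genes, 6.76% were then at least 2-fold higher.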

How the data were processed

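The authors made 10x Genomics 3′ v3 libraries and deposited, per the file headers, raw UMI counts of 33538 genes per cell from Cell Ranger 3.0.2, aligned to GRCh38 and not normalized. The members and gene lists were chosen with earlier results of these data known. Cells with over 25% mitochondrial counts were left out here. UMIs of the remaining cells were added up and scaled to CPM, with exact Poisson intervals at 95%. The log2 ratios of the libraries carry exact binomial intervals and no pseudocount, because several members lie below 1 CPM. Shares after thinning to 10000 UMIs (seed 42) carry Clopper-Pearson intervals, and for a count of 0 the upper limit of that interval is given. UMIs collapse PCR copies, and intervals cover counting error only.

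Named were all 10 members, 6 neighbouring RNAs (5 of which were in the files), list genes with at least 50 UMIs that differed at least 2-fold, with up to 2 others, and, for LHX5 cells, the 10 highest and 5 lowest non-mitochondrial genes. A few further list genes were chosen after their values were seen. Scrublet in scanpy 1.11.5 called too few doublets to be used, so none were removed in the values reported. The ratio and interval code was tested on simulated data. Computation used Python 3.11.15, numpy 2.4.6, scipy 1.17.1 and edgeR 4.0.16 (TMM alternative only).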

Additional observations from a re-analysis of the deposited data

How the results depend on the processing

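No paired analysis was possible because each group had 1 library and no shared replicate numbers. Of 37 alternative values of the main results, 32 stayed within the limits set for an unchanged value (1.5 times for a count, the counting interval for a share difference), and 155 of 196 alternative values for single genes and pairs stayed within their intervals. With a pseudocount of 1 CPM, 4 members in place of 7 were at least 2-fold higher, and LHX5, PAX6 and SIX3 were no longer among them. Their levels in the GATA3 KO library were 0.993, 0.197 and 1.52 CPM, of the order of the pseudocount or below it. The LHX5 share difference was 0.996 points at 20000 UMIs, 1.39 points without thinning and 0.302 points with at least 2 UMIs, above 0 in each. A minimum of 1 CPM left 5 of 11 neural list genes at least 2-fold higher. The PAX6 log2 ratio reversed to -1.66 in the mean of per-cell CPM. TMM and median-of-ratios scaling moved LMO1 past 2-fold, giving 8 members, as did removing the cells of highest doublet score (116 and 307). Precision is limited by few positive cells and by 1 library per group.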

Other observations

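Within the 34 GATA3 KO cells with at least 3 LHX5 UMIs, the forebrain genes FEZF1 and SIX3 rarely met the midbrain-border genes PAX2 and EN1. These pairs were chosen after the values were seen, in cells that differ in depth, and no test was made. All 6 cells with SIX3 also had FEZF1, and 9 of the 10 cells with EN1 also had PAX2. FEZF1 and PAX2 were together in 2 cells against a product of shares of 6.18, and FEZF1 and EN1 in 2 against 4.41. SIX3 was found with neither PAX2 nor EN1, but with 6 SIX3 cells the products were only 2.47 and 1.76. Other forebrain genes were close to their product, with EMX2 and PAX2 in 5 cells against 4.94, EMX2 and EN1 in 4 against 3.53, PAX6 and PAX2 in 4 against 3.71 and PAX6 and EN1 in 2 against 2.65. In all, 13 cells had FEZF1 or SIX3 without PAX2 or EN1 (median 69172 UMIs), 13 had PAX2 or EN1 without FEZF1 or SIX3 (median 34272 UMIs), 2 had genes of both kinds and 6 had none. PAX3 was present in 6 of the 13 cells of the first kind and in 12 of the 13 of the second, while IRX1 was present in 11 of each.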
